A study of Populus trichocarpa with 24 samples.

Results

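The 4 loci described here were taken by their identifiers as the poplar wood regulators MYB002 (Potri.001G258700), MYB021 (Potri.009G053900), MYB003 (Potri.001G267300) and MYB020 (Potri.009G061500). They are 4 of 41335 loci in a table of raw read counts from RNA sequencing of black cottonwood (Populus trichocarpa). The table held 24 libraries in 8 groups of 3. Laser microdissection of xylem gave captures of fibers, captures of vessels and captures pooling fibers, vessels and rays (the mix). Scraped differentiating stem xylem, scraped phloem, shoot tips, expanded young leaves and primary roots were taken as tissues. The labels name no mutant, transgene or treatment in any group. All samples are labelled as 6 months old and the trees grew in a greenhouse, but the protocol takes the roots from young seedlings kept in water. RNA of captured cells was amplified and RNA of tissues was not, so amplification and cell type cannot be told apart between them. The labels tie no library to a tree, so p-values measure the spread between these samples, which may be technical.

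MYB proteins are transcription factors that bind DNA through MYB repeats. In forming wood, NAC transcription factors are known to switch on a small second tier of MYB factors, which in turn activate the genes that make cellulose, xylan and lignin for the thick secondary wall. The poplar proteins named MYB2, MYB3, MYB20 and MYB21 belong to that second tier and are counterparts of the Arabidopsis factors MYB46 and MYB83. MYB002 with MYB021, and MYB003 with MYB020, are known as close duplicate pairs. The names come with the choice of loci and from published nomenclature, because neither the counts nor the reference table used here pairs these identifiers with names. Reads of near-identical copies may have been divided between the loci of a pair in a way that cannot be traced.

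Library totals ran from 5689642 to 30917688 counts, and the number of loci with a count ran from 17956 to 28893 in the captures and from 29994 to 33884 in the tissues. Levels are given as counts per 1000000 counts of the library (CPM). Gene lengths were not used, so levels of different loci are not ranked against each other. The labels were checked with 5 loci recalled from published nomenclature as secondary wall cellulose synthases, which mark forming wood. Their summed level was 8555 ± 1331 CPM in fiber captures, 1362 ± 395.8 CPM in vessel captures, 2616 ± 197.6 CPM in the mix and 9365 ± 1730 CPM in xylem (SD, n = 3 each), against group means from 85.7 CPM in leaf to 265.3 CPM in phloem. The same 5 loci form the cellulose synthase list used below, so their calls there are no separate support for the labels. Since they mark forming wood in general, these loci cannot check which captures are fiber, vessel or mix. Markers of vessels, of the other tissues and of ray cells were not analysed here.

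The xylem libraries were set against those of phloem, shoot tip, leaf and root. All 4 loci were higher in xylem than in phloem, shoot tip, leaf and root. Together they reached 87.1 ± 17.4 CPM in xylem (SD, n = 3), against 3.83 ± 1.58 CPM in phloem, 2.68 ± 1.41 CPM in shoot tip, 3.02 ± 0.777 CPM in leaf and 3.73 ± 0.203 CPM in root. Every xylem library lay above every library of the other tissues for each of the 4 loci. MYB020 stood closer to phloem, shoot tip and leaf than the other 3 loci did, and root was the tissue in which it was almost undetected. In these bulk samples fewer cells of a type and less RNA per cell cannot be told apart.

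**Figure D1:**
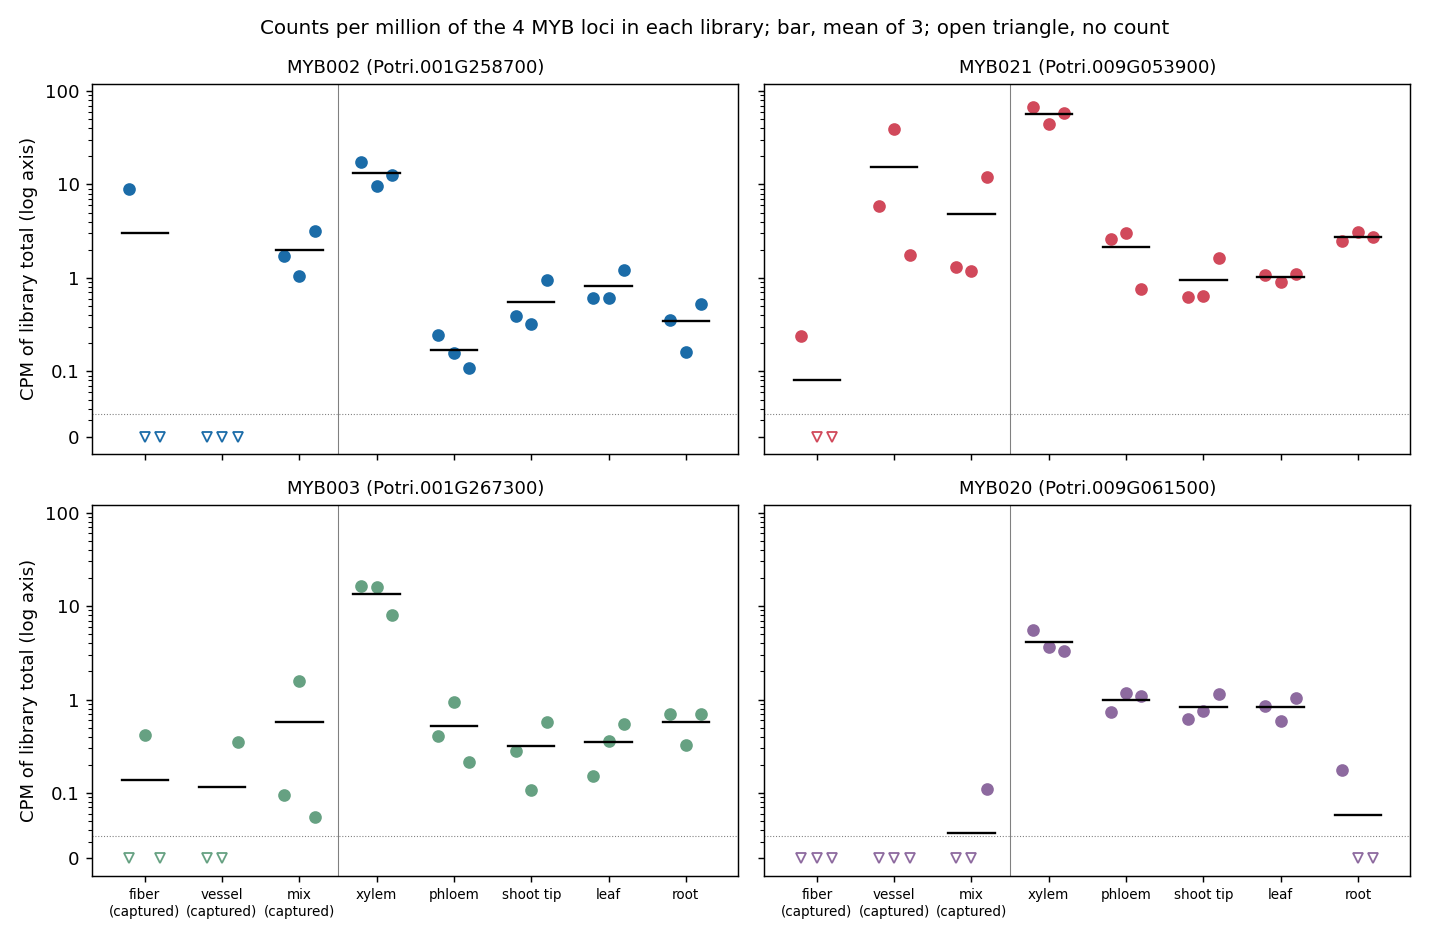
Level of each of the 4 MYB loci in every library, in CPM on a log axis, with captured cells left of the vertical line and tissues right of it. Points are libraries, black bars are means of 3 and open triangles at the bottom are libraries with no count; xylem libraries stand above all other tissues in each panel, and the captured groups hold several libraries with no count.

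MYB002, one copy of the first pair, had 17.3, 9.64 and 12.5 CPM in the xylem libraries, against 0.245, 0.156 and 0.108 CPM in phloem. It had 0.394, 0.319 and 0.957 CPM in shoot tip, 0.614, 0.6145 and 1.22 CPM in leaf and 0.352, 0.162 and 0.528 CPM in root. Xylem was high in all 3 libraries, phloem held 1 to 3 counts a library, and the groups did not overlap with xylem. By edgeR's quasi-likelihood test the log2 fold of xylem over phloem was 6.12 ± 0.52 (SE), with an adjusted p of 3.31e-07. It was 4.61 ± 0.45 over shoot tip, 3.46 ± 0.41 over leaf and 5.46 ± 0.49 over root, with adjusted p-values of 8.22e-07, 3.54e-06 and 3.93e-07. By these folds leaf was the tissue nearest to xylem for MYB002 and phloem the farthest. Neither leaf against shoot tip nor phloem against root was called by edgeR for it (adjusted p-values of 0.0618 and 0.422).

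MYB021, the other copy of that pair, had 67.5, 43.96 and 57.9 CPM in the xylem libraries, against 2.61, 3.05 and 0.758 CPM in phloem. Shoot tip libraries had 0.619, 0.638 and 1.63 CPM, leaf libraries 1.075, 0.906 and 1.10 CPM and root libraries 2.46, 3.07 and 2.73 CPM. All xylem libraries were well above all others, and among the rest, root and phloem replicates 1 and 2 were above shoot tip and leaf. The log2 fold of xylem was 4.66 ± 0.35 (SE) over phloem, 5.95 ± 0.38 over shoot tip, 5.22 ± 0.36 over leaf and 4.74 ± 0.35 over root. The edgeR adjusted p-values were 8.82e-08, 1.85e-08, 1.4e-08 and 6.57e-08.

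MYB003, of the second pair, had 16.2, 15.85 and 7.95 CPM in xylem, against 0.408, 0.939 and 0.217 CPM in phloem. It had 0.281, 0.106 and 0.574 CPM in shoot tip, 0.154, 0.356 and 0.549 CPM in leaf and 0.703, 0.324 and 0.703 CPM in root. Xylem replicate 3 was the lowest of its group and still lay above every other tissue library. The log2 fold of xylem was 4.57 ± 0.50 (SE) over phloem, 5.39 ± 0.53 over shoot tip, 4.62 ± 0.50 over leaf and 4.84 ± 0.52 over root, with edgeR adjusted p-values of 4.37e-06, 1.04e-06, 1.44e-06 and 2.16e-06.

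MYB020, its duplicate, had 5.57, 3.65 and 3.28 CPM in xylem, against 0.735, 1.17 and 1.08 CPM in phloem. It had 0.619, 0.744 and 1.15 CPM in shoot tip, 0.845, 0.582 and 1.04 CPM in leaf, and in root 1 count in replicate 1 and none in replicates 2 and 3. The libraries of phloem, shoot tip and leaf overlapped with each other, below xylem and above root. The log2 fold of xylem was 1.95 ± 0.45 (SE) over phloem, 2.37 ± 0.46 over shoot tip and 1.80 ± 0.44 over leaf, with edgeR adjusted p-values of 0.00235, 4.38e-04 and 0.00237. Over root the pooled CPM of xylem was 102 times higher, with an exact 95% interval for counting error of 18 to 4030, and the edgeR adjusted p was 2.73e-06.

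The share of all 31308 tested loci called higher in xylem at an adjusted p under 0.05 and a log2 fold of at least 1 was 17.3% against phloem, 19.3% against shoot tip, 20.5% against leaf and 21.2% against root, while 4 of 4 MYB loci were called in each. The share of tested loci with every xylem library above every library of the other tissue, as for all 4 MYB loci, was 27.4%, 28.7%, 45.1% and 25.1% in the same order. The 4 comparisons share the xylem libraries. Folds rest on TMM scaling, and on library totals alone the median log2 fold of all loci was shifted by 0.57 against leaf and by -0.39 against root, where the share of calls that were higher in xylem became 58.4% in place of 41.4% and 30.2% in place of 43.6%. All 16 calls stood with each replicate left out and on library totals, while a fit of all 24 libraries lost MYB020 against phloem, at an adjusted p of 0.131, and MYB002 and MYB020 against leaf, at 0.061 and 0.0972. Over the 12 alternatives the log2 folds against phloem ran from 5.86 to 6.37 for MYB002, and from 1.67 to 2.26 for MYB020.

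**Figure D2:**
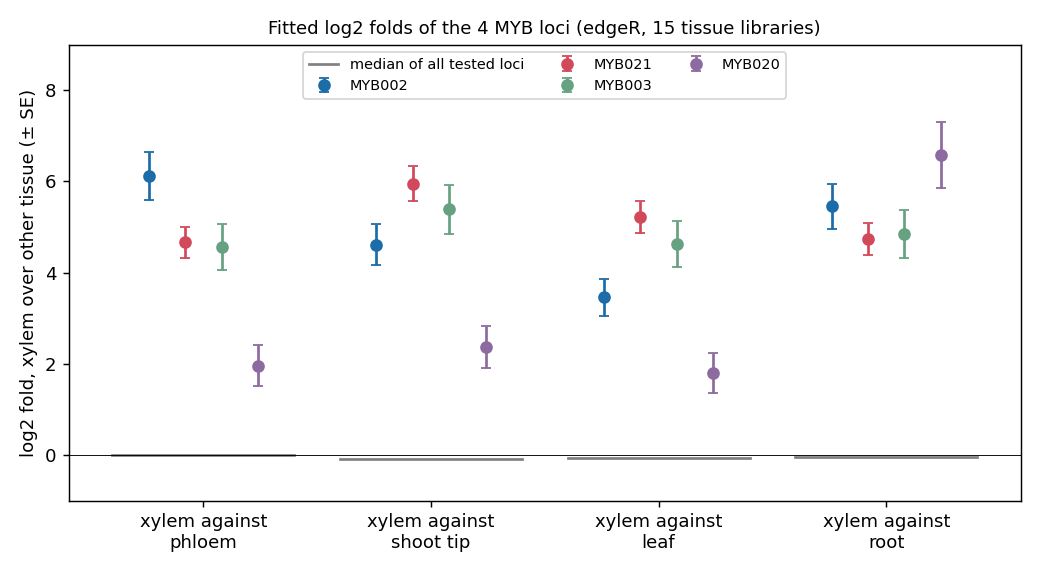
Fitted log2 folds of xylem over each of the other 4 tissues for the 4 MYB loci, with standard errors, from edgeR on the 15 tissue libraries. All 16 points lie above 1, and MYB020 lies at 1.95, 2.37 and 1.80 against phloem, shoot tip and leaf but at 6.58 against root; grey lines are the medians of all tested loci.

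Below xylem few steps in the order of tissues were larger than the spread between libraries. MYB002 followed xylem, leaf, shoot tip, root and phloem in falling CPM, and beyond xylem no neighbours in that order were called by edgeR (adjusted p-values of 0.0618, 0.215 and 0.422). The first of these steps, leaf above shoot tip, was called with the replicate block (log2 fold 1.23, adjusted p 0.0249) and without shoot tip replicate 3 (1.76, 0.0123). MYB021 and MYB003 both followed xylem, root, phloem, leaf and shoot tip in CPM, and again no neighbours after xylem were called, the adjusted p-values running from 0.166 to 0.872 for MYB021 and from 0.345 to 0.954 for MYB003. MYB020 followed xylem, phloem, shoot tip, leaf and root, and there leaf, at 0.821 ± 0.228 CPM, and root, at 0.0586 ± 0.101 CPM (SD, n = 3), were called apart, with an edgeR adjusted p of 1.22e-04. The orders are those of CPM on library totals. By the TMM-scaled folds the order below xylem was phloem, root, leaf and shoot tip for MYB021, phloem, leaf, root and shoot tip for MYB003 and leaf, phloem, shoot tip and root for MYB020, so that MYB021 and MYB003 no longer shared it, and it was as in CPM for MYB002.

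Among all pairs of the other 4 tissues, some differed for 3 of the loci. MYB002 was lower in phloem than in leaf, at 0.170 ± 0.0692 and 0.816 ± 0.35 CPM (SD, n = 3 each), and the log2 fold was -2.66 (edgeR adjusted p 0.00101). It was also higher in leaf than in root, by 2.004 on the log2 scale with an adjusted p of 0.00425. That call was lost on library totals, at 1.09 with an adjusted p of 0.0934. On library totals MYB021 was called lower in leaf than in root (-1.43, adjusted p 0.00664) and higher in phloem than in leaf (1.10, 0.0307), neither of which was called with TMM. Without shoot tip replicate 1 MYB002 was called lower in phloem than in shoot tip (-1.80, 0.0494), and without shoot tip replicate 3 MYB021 was called higher in leaf than in shoot tip (1.33, 0.016). MYB021 was higher in phloem than in shoot tip (log2 fold 1.29, adjusted p 0.0158) and in root than in shoot tip (1.21, 0.0151). The first was lost without phloem replicate 1 or 2 or shoot tip replicate 1 or 2, with adjusted p-values from 0.0514 to 0.0892, and the second without shoot tip replicate 1 or 2, at 0.0864 and 0.0574. MYB020 was higher in phloem and leaf than in root and lower in root than in shoot tip, with edgeR adjusted p-values of 2.02e-04, 1.22e-04 and 5.22e-04. Since root held 1 count, the pooled CPM ratios are wide, at 23.1 for phloem over root (exact 95% interval 3.87 to 937), 17.7 for leaf over root (3.03 to 715) and 0.054 for root over shoot tip (0.00132 to 0.325). No pair was called for MYB003. In all 7 of 24 tests of a locus in a tissue pair were called, or 29.2%, where the share of all tested loci called in either direction ran from 29.8% for leaf against shoot tip to 52.0% for root against shoot tip (31.1% for phloem against shoot tip, 45.2% for phloem against leaf, 51.3% for leaf against root and 51.4% for phloem against root). The count for the MYB loci is therefore not above that of loci in general. Library totals in place of TMM moved the median log2 fold of all loci by -0.116 for phloem against shoot tip, 0.502 for phloem against leaf, -0.452 for phloem against root, -0.619 for leaf against shoot tip, -0.955 for leaf against root and 0.336 for root against shoot tip. The share of calls that were higher in the first tissue then became 59.7% in place of 42.5% for phloem against leaf, 31.5% in place of 45.9% for phloem against root, 28.8% in place of 58.4% for leaf against shoot tip, 25.3% in place of 51.3% for leaf against root and 61.5% in place of 50.9% for root against shoot tip.

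The copies of a pair were compared within each library, where no scaling is needed and gene length cancels between tissues. The larger shift was in the pair of MYB020 and MYB003, where MYB020 held the smaller part of the counts in xylem and in root and the larger part in phloem, shoot tip and leaf. In xylem MYB020 had 107, 50 and 40 counts and MYB003 had 312, 217 and 97. In phloem MYB020 had 9, 15 and 10 counts and MYB003 had 5, 12 and 2. MYB020 thus made up 23.9% of the pair in xylem (197 of 823 counts, exact Clopper-Pearson 95% interval 21.1 to 27.0%), against 64.2% in phloem (34 of 53 counts, 49.8 to 76.9%). Its share was 71.4% in shoot tip (30 of 42 counts, 55.4 to 84.3%), 67.65% in leaf (46 of 68 counts, 55.2 to 78.5%) and 6.67% in root (1 of 15 counts, 0.169 to 31.95%). These intervals cover counting error only. Library shares of 18.7 to 29.2% in xylem lay below the 55.6 to 83.3% in phloem, the 66.7 to 87.5% in shoot tip and the 62.1 to 84.6% in leaf, without overlap.

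In the pair of MYB021 and MYB002, MYB021 held the larger part of the counts in every tissue as a whole, and its share was 80.9% in xylem (2606 of 3223 counts, Clopper-Pearson interval 79.45 to 82.2%). It was 92.9% in phloem (78 of 84 counts, 85.1 to 97.3%) and 87.7% in root (64 of 73, 77.9 to 94.2%), both above xylem in every library. In shoot tip it was 63.0% (34 of 54, 48.7 to 75.7%) and in leaf 56.1% (60 of 107, 46.15 to 65.7%), both below xylem in every library. The xylem libraries were close together, from 79.6 to 82.2%.

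The planned minimum of 10 counts of each copy in every library was met in no comparison, so the test was run with at least 5 counts of the pair together, a minimum chosen after the counts were seen. On a log2 scale with a pseudocount of 0.5, the ratio of MYB020 to MYB003 in xylem averaged -1.64 ± 0.43, against 1.06 ± 0.91 in phloem, 1.44 ± 0.76 in shoot tip and 1.26 ± 0.82 in leaf (SD, n = 3 each). The differences were -2.69, -3.08 and -2.89. For MYB021 over MYB002 the ratio in xylem was 2.12 ± 0.13, and the difference was -1.055 from phloem, 1.37 from shoot tip, 1.73 from leaf and -0.72 from root. Each of these 7 comparisons gave p = 0.1 in an exact two-sided permutation test, the smallest that 3 against 3 libraries allow, and 0.1 after Benjamini-Hochberg adjustment, so none could reach 0.05. With a pseudocount of 1 the libraries of phloem and root overlapped those of xylem for MYB021 over MYB002, and the exact permutation test gave p = 0.3 and 0.2. Root was not tested for MYB020 and MYB003, since root replicate 2 held fewer than 5 counts of the pair.

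**Figure D3:**
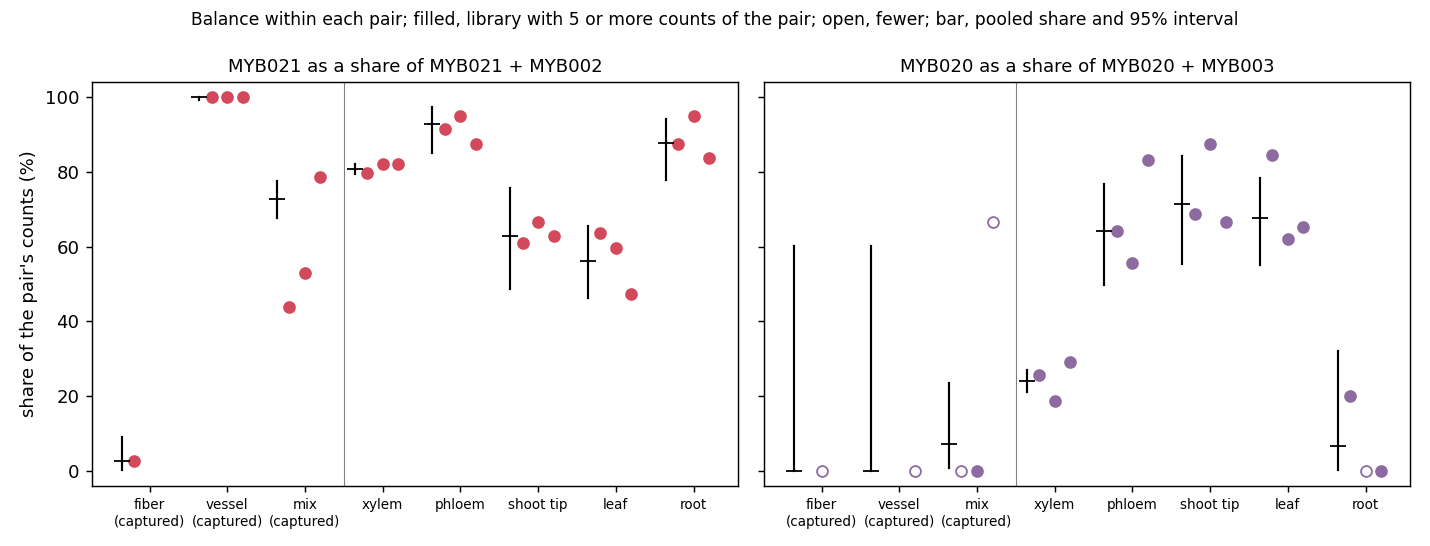
Share of the pair's counts held by MYB021 (left) and by MYB020 (right) in each library, in percent, with filled points for libraries with at least 5 counts of the pair and open points for fewer. Black bars give the share of the pooled counts and its 95% Clopper-Pearson interval; MYB020 makes up 23.9% of its pair in xylem, against 64.2% in phloem.

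The rest of the pathway was followed with lists of locus identifiers recalled from published nomenclature and not checked against an annotation, so a list may hold a wrong locus. They hold 12 loci of the NAC factors that act above the MYB tier, and below it 5 secondary wall cellulose synthase loci, 11 xylan synthesis loci and 22 loci of monolignol synthesis, which makes the building blocks of lignin. Against phloem, 11 NAC, 5 cellulose synthase, 11 xylan and 22 monolignol loci were called higher in xylem by edgeR and none lower. The median log2 fold was 4.62 for the MYB loci, 3.38 for NAC (3.26 with 1 locus that had no count in phloem at its lower bound), 5.10 for cellulose synthase, 4.53 for xylan and 4.23 for monolignol loci, against 0 for all tested loci. Against root the MYB median was 5.15 and the monolignol median 2.32, with 21 of 22 loci called higher, and the median of all loci was -0.05.

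Against shoot tip 10 NAC, 5 cellulose synthase, 11 xylan and 21 monolignol loci were called higher and none lower, and the MYB median of 5 stood beside 3.48, 6.14, 5.77 and 3.92 for those lists, and -0.09 for all tested loci. Against leaf 10 NAC, 5 cellulose synthase, 11 xylan and 20 monolignol loci were called higher and 1 monolignol locus lower. The MYB median was 4.04 there, beside 2.97, 6.31, 5.78 and 4.14 for the lists and -0.06 for all loci. Against root 10 NAC, 5 cellulose synthase and 11 xylan loci were called higher, with medians of 3.48, 5.88 and 5.24, and 1 NAC locus was lower. Of all 31308 tested loci, 5841 were called lower in xylem against phloem, 8293 against shoot tip, 9091 against leaf and 8579 against root. The fit of all 24 libraries called 7 NAC loci against phloem and 5 against leaf.

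Likeness across the 5 tissues was measured as profile overlap. Each locus has its tissue mean CPM values turned into shares of their sum, and the smaller share of a pair of loci is summed over tissues, so that 100% means identical profiles. Xylem held 87.4% of the summed means for MYB002, 89.1% for MYB021, 88.3% for MYB003 and 60.6% for MYB020. Of all 31307 other tested loci, MYB003 had the largest overlap with MYB021 and MYB021 the largest with MYB003, at 98.6%. MYB002 overlapped with MYB021 by 94.0% and with MYB003 by 95.3%, whereas MYB020 overlapped with MYB003, its duplicate, by 69.3%. The tissue profile of MYB021 was therefore nearer to that of a locus outside its pair than to that of its own duplicate. Xylem dominates these sums, and the values are a description over 5 tissue means of 3 libraries each.

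Of the 10 loci nearest to each MYB locus, other MYB loci of the 4 left out, 1 was in a pathway list for MYB002, 3 for MYB021, 2 for MYB003 and 0 for MYB020. The lists together hold 50 of the 31308 tested loci. The nearest of all overlapped by 97.4% with MYB002 and by 96.0% with MYB020, and both are in no list. The locus nearest to MYB003 was Potri.011G069600, of the secondary wall cellulose synthase list, at 98.3%. The nearest to MYB021 was Potri.001G068100, of the xylan list, at 98.5%. When the 3 captured groups were included, these overlaps were 70.9% and 64.5%. The median overlap with the cellulose synthase loci was 92.5% for MYB002, 95.6% for MYB021, 94.7% for MYB003 and 66.1% for MYB020, and with the NAC loci it was 79.7%, 79.0%, 79.8% and 74.9%. Over all tested loci the medians were 28.5%, 26.95%, 27.8% and 52.2%.

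**Figure D4:**
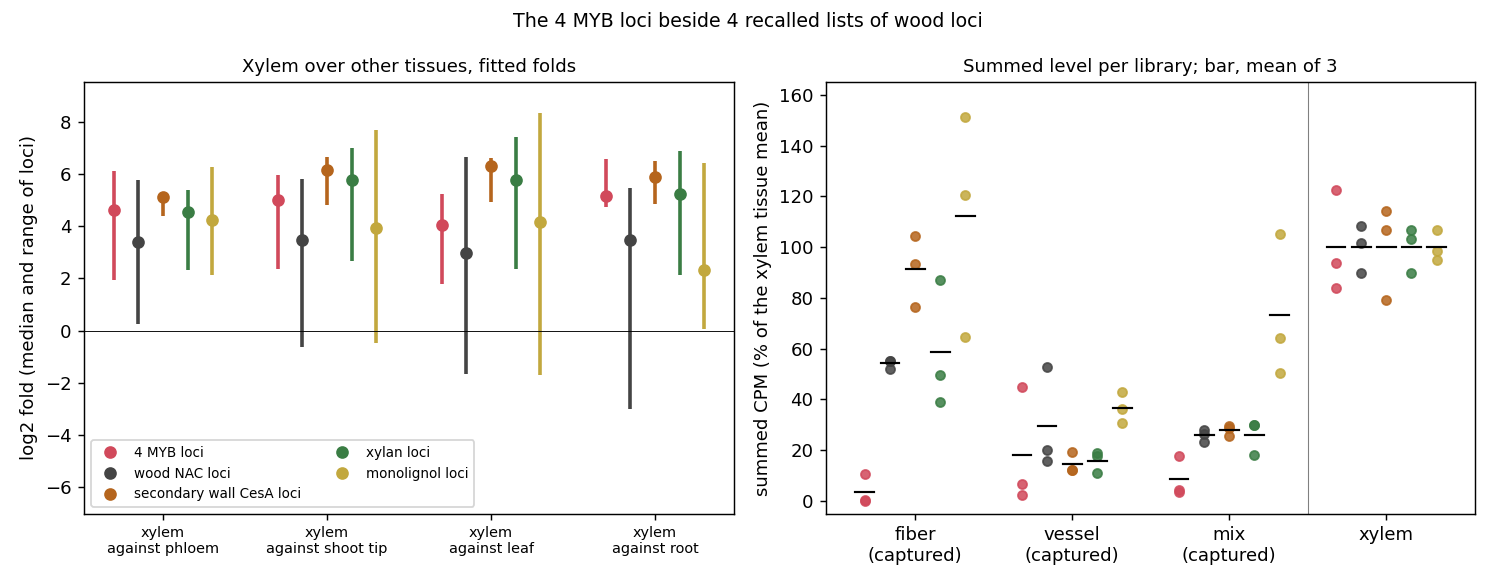
Left, fitted log2 folds of xylem over the other 4 tissues for the 4 MYB loci and 4 recalled lists, as the median (point) and range (line) over loci. Right, summed CPM of each set in every captured and xylem tissue library as a percentage of the xylem tissue mean; the MYB loci lie at a mean of 3.70% for fiber, 18% for vessel and 8.52% for the mix, and one vessel library stands apart at 44.9%.

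Fiber captures were then set against vessel captures. In fiber captures the MYB loci were close to undetected outside 1 library, and 75 of the 77 counts there came from MYB002. In vessel captures almost all counts came from MYB021, which was present in all 3 libraries. Between these groups MYB002 was thus counted in 1 fiber library only, and MYB021 almost only in vessel libraries. Fiber replicates 2 and 3 had no count of either copy, and edgeR called neither locus. MYB003 and MYB020 had too few counts to be tested between captures.

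MYB021 had 2, 0 and 0 counts in the fiber libraries, against 76, 391 and 20 counts in vessel, or 5.84, 39.1 and 1.75 CPM. The fiber libraries lay below all vessel libraries, which differed widely among themselves, and 11.1% of tested loci had that order. The pooled CPM ratio of fiber to vessel was 0.00499, with an exact 95% interval of 6.03e-04 to 0.0181 for counting error only. The fitted log2 fold was -7.34 ± 2.40 (SE), with an edgeR adjusted p of 0.0982, and the adjusted p ran from 4.52e-04 to 0.254 over the alternatives. Vessel replicate 2 held 80.3% of the vessel counts, and without it the vessel mean was 3.80 CPM in place of 15.6 CPM.

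MYB002 had 75, 0 and 0 counts in the fiber libraries, 9.02 CPM in replicate 1, against 0 counts in all 3 vessel libraries. A count of 0 allows up to 0.231 to 0.3 CPM in the vessel libraries (3 counts each). The pooled fiber level was at least 30.4-fold higher, taking 3 counts over the vessel group for counting error only, but without fiber replicate 1 both groups had no count. In that replicate MYB021 made up 2.60% of the counts of the pair (2 of 77, Clopper-Pearson interval 0.316 to 9.07%), against 100% in vessel (487 of 487, 99.25 to 100%). These intervals cover counting error only, and 391 of the 487 vessel counts came from replicate 2. The edgeR adjusted p for MYB002 was 0.153 at a log2 fold of 8.33 ± 3.18 (SE), a value that depends on how the fit treats the zero group.

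By edgeR 0 of the 2 MYB loci tested were called between fiber and vessel, where 6.05% of 22828 tested loci were called in either direction. Both had an unadjusted p under 0.05 by edgeR, as did 5453 of the 22828 tested loci. DESeq2 and a fit of all 24 libraries called both, and that fit called 9369 loci in place of 1380. Secondary wall cellulose synthase loci were called higher in fiber in 4 of 5 cases, monolignol loci in 15 of 22 and xylan loci in 2 of 11, against 2.86% of all tested loci. Of 9 tested NAC loci edgeR called 0, with 2 at an unadjusted p under 0.05, and DESeq2 called 2. Over the 12 alternatives the calls ran from 3 to 5 for cellulose synthase, 5 to 18 for monolignol, 1 to 7 for xylan and 0 to 4 for NAC loci, the highest in the fit of all 24 libraries. The monolignol count was 5 without fiber replicate 1, 8 without fiber replicate 2, and 9, 9 and 6 without vessel replicates 1, 2 and 3, and the xylan count was 1 without fiber replicate 1. MYB003 had 4 counts in fiber replicate 2 and 4 counts in vessel replicate 3 and none in the other libraries of these groups. MYB020 had no count in any fiber or vessel library, and 3 counts over the group would be 0.106 CPM for fiber and 0.0872 CPM for vessel.

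The mix of fiber, vessel and ray cells held both copies of the first pair. MYB002 had 1.705, 1.06 and 3.215 CPM and MYB021 had 1.33, 1.19 and 11.9 CPM. MYB021 made up 72.9% of the pair (247 of 339 counts, Clopper-Pearson interval 67.8 to 77.5%), with 43.75, 52.9 and 78.75% in the 3 libraries. The interval covers counting error only, and each of these library shares lay outside it. Without replicate 3 the pooled share was 48.5% (32 of 66 counts, 35.99 to 61.1%). Mix replicate 3 held 87.0% of the MYB021 counts, and without it the mean was 1.26 CPM in place of 4.81 CPM. Fiber libraries with 2 counts of MYB021 in all lay below the mix, at a pooled ratio of 0.0125 (exact 95% interval 0.0015 to 0.0456), with an edgeR adjusted p of 0.376. Vessel libraries, without a count of MYB002, were pooled at least 24.2-fold lower than the mix for that locus. That bound covers counting error only, and the edgeR adjusted p was 0.336. No MYB locus was called in either comparison by edgeR. The share of tested loci called was 0.346% for fiber against the mix and 0.0131% for vessel against the mix. In each comparison 1 MYB locus had an unadjusted p under 0.05 by edgeR, as did 2468 and 2918 of the 22828 tested loci. DESeq2 called 1 MYB locus in each. Every fiber library lay below every mix library for 23.1% of tested loci, as for MYB021, and every vessel library below every mix library for 21.7%, as for MYB002. The median log2 fold of all loci moved by -0.142 on library totals for fiber against the mix and by 0.152 with RLE scaling for vessel against the mix.

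Captured cells were then set beside xylem tissue, keeping in mind that only captured RNA was amplified. All 4 MYB loci were lower in the mix than in xylem tissue. For all 4 loci every captured library lay below every xylem library, as did 32.0% of tested loci for the mix, 34.8% for fiber and 32.2% for vessel. Their summed level in the captures, as a share of the xylem tissue mean, was 3.70 ± 6.004% for fiber, 18 ± 23.4% for vessel and 8.52 ± 7.84% for the mix (SD, n = 3 each). Each mean rests on 1 library, and it was 0.240% without fiber replicate 1, 4.56% without vessel replicate 2 and 3.999% without mix replicate 3. The NAC loci above them in the pathway stood at 54.2 ± 1.87% for fiber, 29.5 ± 20.1% for vessel and 25.8 ± 2.36% for the mix. Secondary wall cellulose synthase loci stood at 91.3 ± 14.2%, 14.5 ± 4.22% and 27.9 ± 2.11%. Relative to xylem, the NAC and cellulose synthase sums of every fiber library were therefore above the MYB sum of every fiber library, which reached 10.6% at most. Sums weigh the most abundant loci most. Over single loci the median log2 fold of fiber against xylem was -3.39 for 10 tested NAC loci (-9.10 to 0.194). It was -0.607 for cellulose synthase and -7.53 for the 4 MYB loci (-9.34 to -1.98). The NAC and MYB sets hold loci with no count in fiber, whose folds depend on how the fit treats the zero group. The part of amplification and of the smaller number of loci detected in the captures in the gap between the sums was not tested.

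In the mix the log2 fold against xylem was -2.78 ± 0.46 (SE) for MYB002, -3.60 ± 0.82 for MYB021 and -4.52 ± 0.995 for MYB003, with edgeR adjusted p-values of 0.00258, 0.00917 and 0.00807. One library sets the size for each of MYB021 and MYB003: without mix replicate 3 MYB021 was at -5.51, and without mix replicate 2, which holds 92.3% of its mix counts, MYB003 was at -7.475, both still called. MYB020 had 0, 0 and 2 counts in the mix, against 107, 50 and 40 counts in xylem, a pooled CPM ratio of 0.0105 (exact 95% interval 0.00126 to 0.0384) with an adjusted p of 0.00156. The fit of all 24 libraries lost MYB002, at an adjusted p of 0.152. Of 25245 tested loci 21.3% were called lower in the mix. Of the lists 8 of 10 tested NAC, 5 of 5 cellulose synthase, 11 of 11 xylan and 10 of 22 monolignol loci were lower and 1 monolignol locus was higher, where 16.9% of all tested loci were called higher.

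In fiber 3 of 4 MYB loci were called lower than in xylem tissue, where 15.8% of 23735 tested loci were. MYB021 had a pooled CPM ratio of fiber to xylem of 0.00122 (exact 95% interval 1.48e-04 to 0.00442, edgeR adjusted p 0.00415). MYB020, with no count in fiber, was at least 41.2-fold lower for counting error only (edgeR adjusted p 0.00805). MYB003 had a log2 fold of -6.42 ± 1.57 (SE) and an adjusted p of 0.0271, a call lost without any 1 of the xylem replicates, at adjusted p-values of 0.116, 0.106 and 0.0892. MYB002, at a log2 fold of -1.98 ± 1.99, was not called (adjusted p 0.553), and without fiber replicate 1 it was, with an adjusted p of 0.0104. Among the lists 2 of 10 tested NAC, 1 of 5 cellulose synthase, 3 of 11 xylan and 1 of 22 monolignol loci were lower in fiber, and 3 monolignol loci were higher. Of all tested loci 6.61% were called higher in fiber. Over the 12 alternatives the calls in either direction ran from 0 to 7 for NAC, 0 to 2 for cellulose synthase, 2 to 6 for xylan and 0 to 7 for monolignol loci, and without xylem replicate 3 there were 0 NAC and 0 monolignol loci.

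In vessel 2 of 4 MYB loci were called lower than in xylem tissue, against 12.9% of 24194 tested loci. MYB002, with no count in vessel, was at least 157-fold lower (edgeR adjusted p 0.022) and MYB020, also with none, at least 50.1-fold lower (0.0119). These bounds cover counting error only and leave out the spread between libraries. MYB021 had 5.84, 39.1 and 1.75 CPM in vessel, against 67.5, 43.96 and 57.9 CPM in xylem, and its log2 fold of -1.825 ± 1.09 (SE) was not called (adjusted p 0.369). Without vessel replicate 2 it was -3.84 and was called, with an adjusted p of 0.0157. MYB003, at -6.70 ± 1.99, was not called (adjusted p 0.0691). It was called without any 1 of the vessel replicates, at adjusted p-values of 0.0457, 0.0479 and 0.0142, by DESeq2 (1.68e-04) and in the fit of all 24 libraries (0.00132). The calls depend on single libraries: 1 locus was called without xylem replicate 1, 0 without xylem replicate 2 or 3, and 4 without vessel replicate 2. Of the lists 2 of 10 tested NAC, 5 of 5 cellulose synthase, 6 of 11 xylan and 14 of 22 monolignol loci were lower in vessel. Over the 12 alternatives these counts ran from 0 to 5 for NAC, 5 to 10 for xylan and 9 to 15 for monolignol loci. Without any 1 xylem replicate 0 NAC loci were called, without vessel replicate 2 there were 5, and without xylem replicate 1 or 3 there were 9 monolignol loci.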

How the data were processed

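The deposited table holds whole-number counts for each locus, which the authors had not normalized. The submitters' processing notes name TopHat. Its version, and any counting tool, genome build, annotation or strand option, were not given in the sources used. Each of the 24 columns matched 1 sample title, and 0 columns lacked a sample. The reference table (assembly P.trichocarpa_v4.1) matched 0 of 41335 identifiers, so coordinates, lengths and product names were not used, marker lists by product name could not be applied, and a list of 21 further MYB loci was dropped. Totals per library limit precision at low counts, and a count of 0 was taken to allow 3 counts. Bounds set that way cover counting error only, not the spread between libraries.

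Members and lists were chosen with earlier results of these data known. Tests used edgeR 4.0.16 with limma 3.58.1 under R 4.3.3 (filterByExpr, TMM, quasi-likelihood test), and DESeq2 1.42.0 served as an alternative. Calls needed a Benjamini-Hochberg adjusted p under 0.05 over all tested loci and a log2 fold of 1 or more in size. The 15 tissue libraries were fitted together (31308 loci, biological coefficient of variation 27.45%), and so were the 9 captures (22828 loci, 111.3%, 2 of 4 MYB loci tested) and each captured group with xylem (6 libraries, 4 of 4 tested). Standard errors are the absolute log2 fold over the square root of F. The method was run on simulated data for xylem against phloem and for fiber against vessel only. Its outcome is not given here, and captures against xylem were not simulated. Figures used Python 3.11.15 with matplotlib 3.10.9. By the rule for named genes, all 4 members are given in every library and the loci most like each by profile overlap are summarised, with 2 identifiers printed because none has a name here, and for the same reason single list loci are not named.

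Counts of replicates differed beyond sampling noise, with chi-square over its degrees of freedom between 5.498 and 225.2, so each library counts as 1 replicate. To see whether replicate numbers pair samples, deviations from group means were correlated between same-numbered libraries. They exceeded 0.1 for all numbers in 3 of 16 comparisons, xylem with phloem (0.132, 0.343 and 0.164), shoot tip (0.287, 0.142 and 0.247) and leaf (0.122, 0.180 and 0.233). Same-numbered libraries were each other's best match for xylem with shoot tip and with leaf, but not for xylem with phloem. They were also best matches for the mix with xylem (0.0315, 0.0976 and 0.126) and for fiber with xylem (0.00969, 0.0252 and 0.0273). No label states a pairing. The replicate block was an alternative throughout, beside RLE scaling, library totals, no filter, all 24 libraries and leaving out each replicate.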

Additional observations from a re-analysis of the deposited data

How the results depend on the processing

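Against phloem, shoot tip and root, 4 of 4 MYB loci were called higher in xylem under all 12 alternatives except the fit of all 24 libraries against phloem, which called 3. Against leaf that fit called 2. Over the other tissue pairs, 7 calls became 3 in the fit of all 24 libraries and ranged from 5 to 9 with 1 replicate left out. Between fiber and vessel, 0 calls became 2 by DESeq2 and in the fit of all 24 libraries, and for fiber and for vessel against the mix both gave 1. Against xylem tissue the replicate block left 1 call in fiber in place of 3 and 0 in vessel in place of 2, and leaving out 1 replicate gave 2 to 4 in fiber and 0 to 4 in vessel. No label pairs the numbers there. Same-numbered libraries were each other's best match for fiber with xylem, but not for vessel with xylem. The replicate block moved no other count of MYB calls by more than 1.5 times. The cause of these changes was not tested.

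Small log2 folds changed sign. On library totals MYB020 was at 0.2985 in phloem against leaf and at -0.02982 in leaf against shoot tip, MYB021 at -0.3305 and MYB003 at -0.1293 in phloem against root, and MYB003 at -0.6987 in leaf against root. With the replicate block MYB002 was at -3.052 in fiber against mix. With 1 replicate left out, the fold of MYB003, phloem against leaf, ranged from -0.563 to 0.3892, and that of MYB003 ranged from -0.3371 to 0.5267 in phloem against root and from -0.09452 to 0.4244 in leaf against root. MYB020 ranged from -0.4044 to 0.1181 in phloem against leaf, MYB021 from -0.1504 to 0.3063 in phloem against root and from -0.2092 (without vessel replicate 2) to 3.699 in vessel against mix, and MYB002 from -7.562 (without fiber replicate 1) to 1.405 in fiber against mix.

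Over all loci the fit of all 24 libraries called 4393 in place of 11267 for xylem against phloem, 6964 in place of 14343 against shoot tip, 8883 in place of 15517 against leaf and 8343 in place of 15219 against root, and between 2482 and 8637 for the other tissue pairs in place of 9344 to 16275. Calls ranged from 599 to 9369 around 1380 for fiber against vessel, from 16 to 4067 around 79 for fiber against mix and from 0 to 6128 around 3 for vessel against mix. Against xylem tissue they ranged from 5865 to 10617 around 9645 for the mix, from 1750 to 8863 around 5325 for fiber and from 871 to 10922 around 4198 for vessel. Low counts limit MYB003 and MYB020 in the captures.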

Other observations

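Of the 10 loci with the largest profile overlap with MYB020, 8 carry neighbouring identifiers of 1 series. They lie between 58.2 and 65.4 CPM in xylem, with overlaps of 95.4 to 96.0% over the tissues and 92.7 to 94.5% when the captured groups were included. Whether reads are shared between these loci was not tested.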
